A study of Brassica napus with 6 samples.

Results

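In young floral buds of rapeseed, 52 assembled transcripts had almost no reads in water-sprayed plants and more reads in each of the 3 libraries from plants sprayed with amidosulfuron. They were selected on their counts in this same comparison: an upper quartile of at least 10 over the 6 counts, a mean control level under 1 CPM (counts per 1000000 tabulated counts of the library), a mean treated level at least 4 times the control mean, and a lowest treated level above the highest control level. The 52 were 0.208% of the 24958 transcripts past the count filter, out of 65535 tabulated. A match to a Brassica rapa gene was given for 43 of them, on 31 genes, and 9 were unmatched. Their levels in this comparison are therefore a description and carry no test. What the selection did not use directly is the behaviour of the other transcripts of the same genes and the order of the treated libraries among themselves. Neither is wholly free of it. The other transcripts may share reads with the 52, and the lowest treated level entered the rule.

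The plants were Brassica napus cultivar Qinyou3, grown in the field, moved to a greenhouse after vernalization and sprayed at bolting with 0.3 mg/L amidosulfuron or with water. Each group has 3 biological replicates of total RNA from buds in which pollen mother cells were in meiosis, called control 1 to 3 and amidosulfuron 1 to 3 here. RNA of a whole bud mixes many cell types, so more RNA per cell and more cells of one type cannot be told apart. Tabulated totals ran from 2218787 to 3596321 counts in control libraries and from 1942711 to 2867528 in treated libraries, which is 30.1% to 34.1% of the mapped reads behind the authors' RPKM values. Transcripts outside the tabulated part were not analysed here. Control 3 and amidosulfuron 2 shared more of their deviations from their group means than any other control and treated library (correlation 0.37 across transcripts), and the main counts of calls below are also given without them.

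Amidosulfuron is a sulfonylurea. This class blocks acetolactate synthase, the enzyme that starts the synthesis of the branched-chain amino acids valine, leucine and isoleucine, and growing tissues such as buds depend on it. At doses too low to kill the plant, several sulfonylureas stop pollen formation and are used as male gametocides, which induce male sterility for hybrid seed production. Plants that tolerate sulfonylureas commonly break them down by oxidation through cytochrome P450 enzymes followed by coupling to glucose or glutathione. The tables give each transcript an assembly name and a Brassica rapa identifier with no gene symbol. Of all 20674 tabulated identifiers, 0 occur in the RefSeq gene table used here, so the lack of a match is not particular to the 31. None of these roles can therefore be given to any of the 52.

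Summed over the 52 transcripts, the level was 25.3, 13.1 and 17.2 CPM in controls 1 to 3 and 2255, 578 and 1291 CPM in amidosulfuron 1 to 3. The group means were 18.5 CPM ± 6.23 and 1374 CPM ± 842 (SD, n = 3). The treated libraries thus lay far above the control libraries, but differed among themselves almost 4-fold (the plot of levels in each library). At least part of a count was present in control 1 for 34 of the 52, in control 2 for 24 and in control 3 for 28. All control counts were 0 for 8 of the 52, and a further 23 had at most 3 counts in all controls together, while 21 had more. The lowest treated value was at the floor of 3 counts: comp46906_c0_seq1 had 3 counts in amidosulfuron 2 (1.05 CPM).

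**Figure D1:**
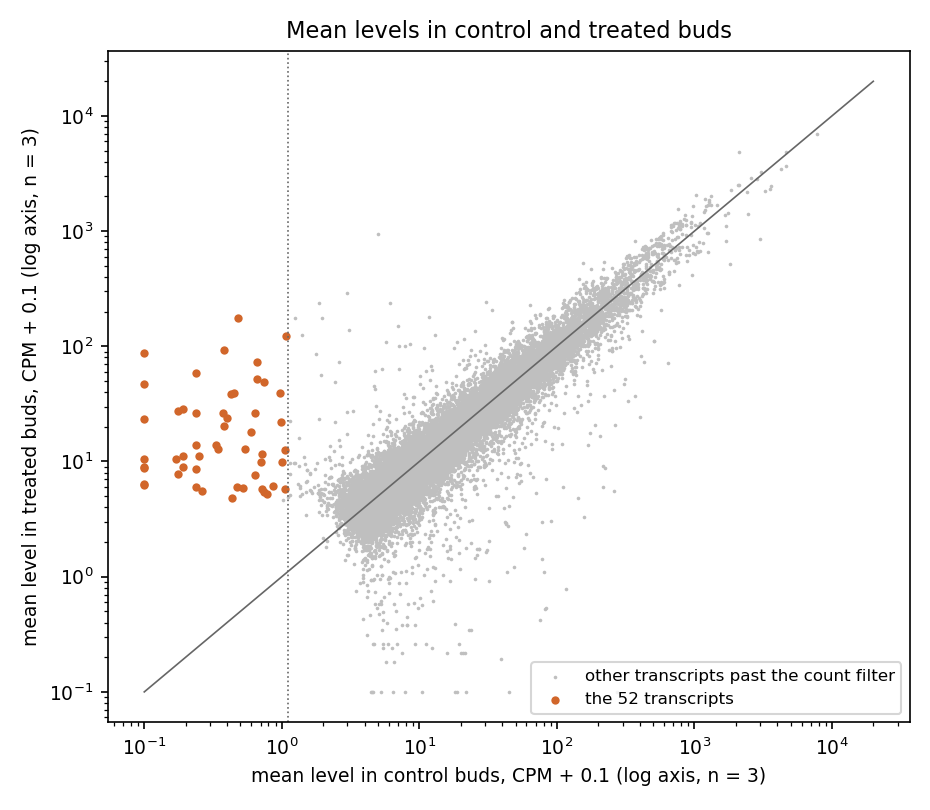
Mean level in the 3 control libraries (horizontal) and the 3 amidosulfuron libraries (vertical) of the 24958 transcripts past the count filter, in CPM + 0.1 on log axes; the dotted line marks the limit of 1 CPM and the solid line equal levels. The 52 transcripts (orange) lie left of the dotted line, between 4.76 and 175 CPM in treated buds.

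Among the 52, the mean treated level ranged from 4.76 to 175 CPM with a median of 12.6, beside a median of 12.1 over all transcripts past the filter. Per length, the mean treated value was 10.0 RPKM at the median (reads per kilobase and per 1000000 mapped reads, the authors' values). Of the 52, 43 lay above 4.80 RPKM, the median of all transcripts past the filter. The other 9 lay below it, down to 1.33 RPKM. The 44 whose length could be recovered exactly were 204 to 1458 bp long with a median of 604.5 bp, against a median of 899 bp over all transcripts past the filter. The labels describe tag libraries from normalized cDNA. Whether their counts scale with length, and so whether RPKM compares levels between transcripts, was not tested.

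The count filter itself fixed most of this selection. Of the 65535 tabulated transcripts, 27749 had a mean control level under 1 CPM, but only 53 of these passed the filter, because a transcript this low in controls can reach an upper quartile of 10 counts only through the treated libraries. All 53 were at least 4 times higher after amidosulfuron. The transcript left out, comp46549_c0_seq1, matched to Brara.H01274, had 2, 4 and 1 counts in the controls and 15, 12.3 and 3 after treatment, so that its lowest treated level of 1.46 CPM lay under its highest control level of 1.80. The mirror image was similar in size but not in share. In the other direction, 102 transcripts past the filter had a treated mean under 1 CPM. Of these, 58 met the same criteria, against 52 of the 53 above.

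The limits fell within a continuous range of levels. Just inside the limit of 1 CPM lay comp46836_c0_seq3 with a control mean of 0.969 CPM, and just outside it comp42854_c0_seq2, matched to Brara.I02254, with 1.01 CPM in control and 4.81 CPM in treated buds. The member with the smallest ratio, comp106851_c0_seq1 of Brara.I00439, had 2.5, 2 and 3 counts in the controls and 15.5, 12 and 10 after treatment, a 5.99-fold difference of mean CPM. Among transcripts past the count filter and under 1 CPM in controls, only the one that overlapped, at 4.86-fold, lay closer to the limit of 4-fold. Groups did not overlap in the upward direction for 7.58% of all transcripts past the filter; for the 52 this was required. In a fit across all 24958 transcripts, the quasi-likelihood test of edgeR called 0.16% higher and 0.0321% lower in treated buds (p adjusted by Benjamini-Hochberg, limit 0.05). Of the 52, 19 were among those called higher, which repeats the contrast that chose them. Without control 1, 2 or 3 the number was 3, 0 or 11 of 52, beside 9, 0 or 24 of all transcripts. Without amidosulfuron 1, 2 or 3 it was 10 of 38, 46 of 49 or 6 of 41, beside 20, 249 or 12 in all. Without control 3 and amidosulfuron 2 it was 43 of 50, beside 155 in all. DESeq2 called 46 of 52, beside 185 in all, and limma-voom 0 of 52, beside 0. Each of these fits tested 24089 to 25485 transcripts, and members under its count filter were left out. These counts too repeat the contrast that chose the members.

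**Figure D2:**
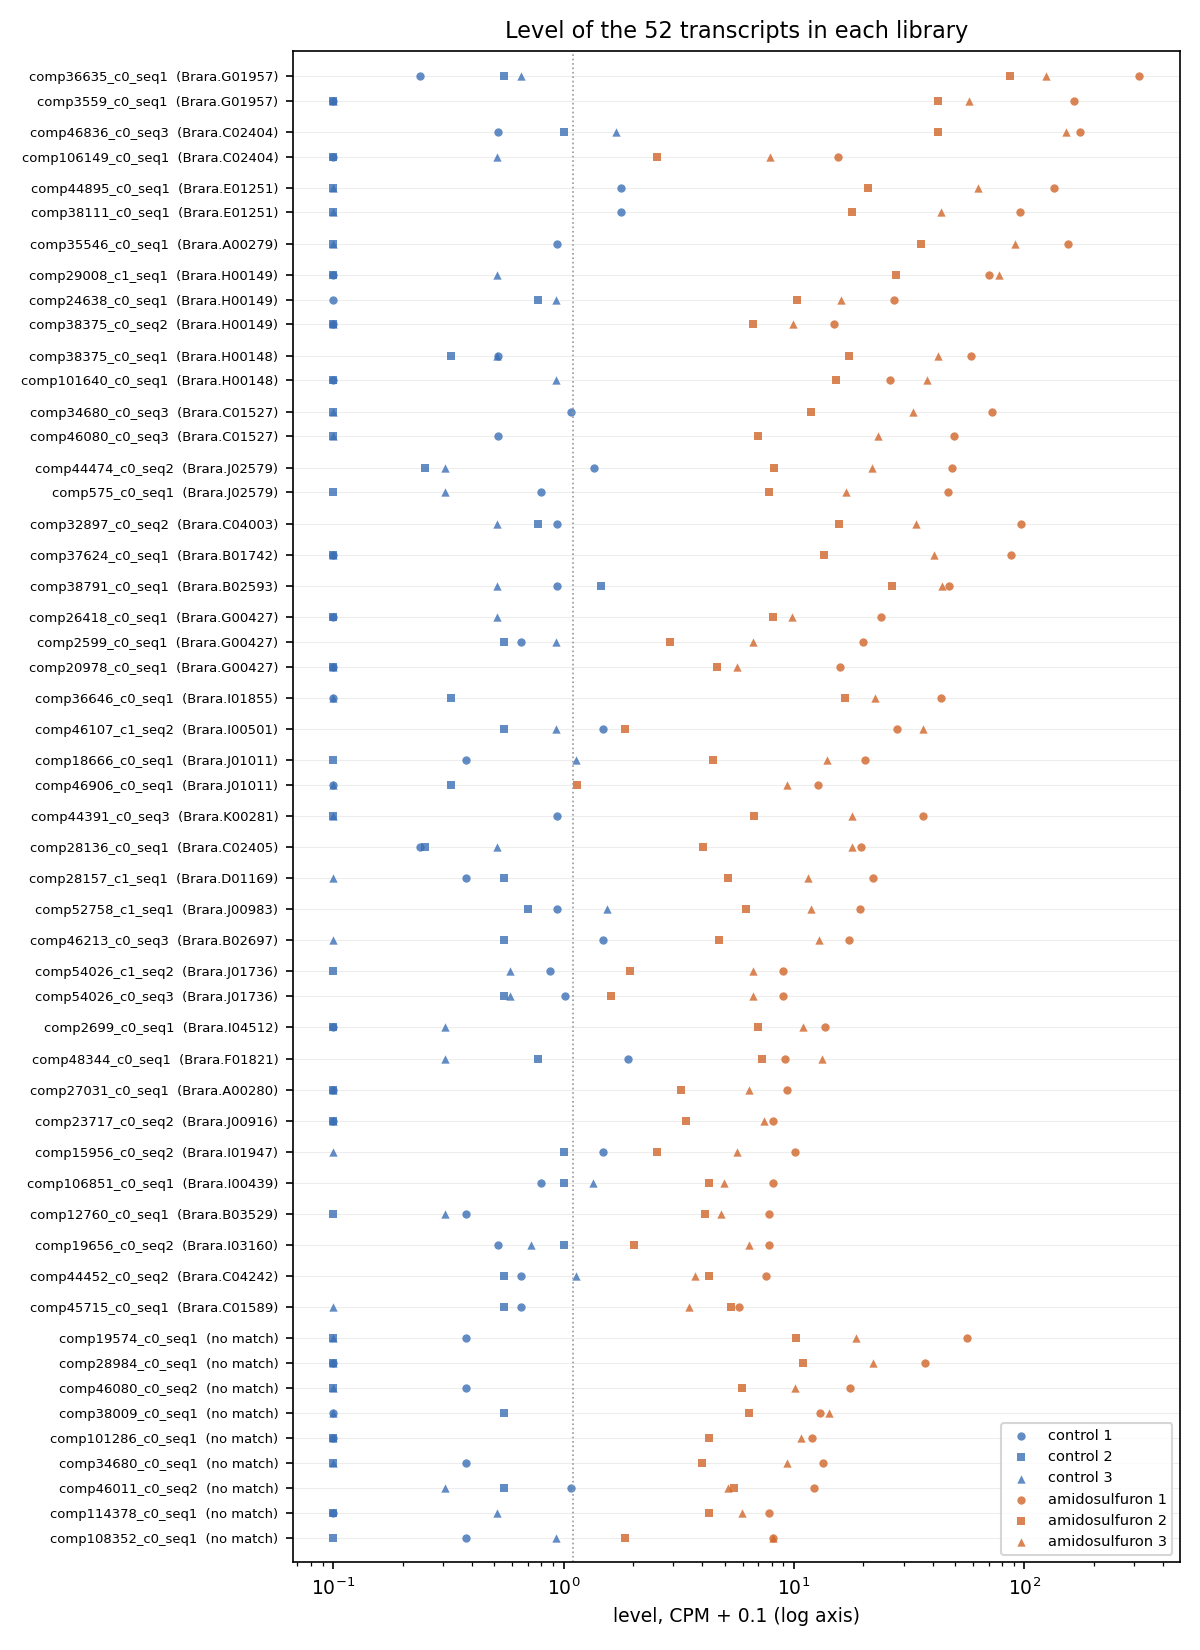
Level of each of the 52 transcripts in each library, in CPM + 0.1 on a log axis, grouped by Brassica rapa match; blue marks are the control libraries, orange marks the amidosulfuron libraries, the shape gives the replicate, and the dotted line marks 1 CPM. Marks at the left edge are counts of 0, and amidosulfuron 2 (orange squares) is the lowest treated library for 49 of the 52.

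Of the 31 genes, 10 had 2 or 3 of the 52 transcripts, 22 transcripts in all, and 21 had 1. The highest member in CPM came from Brara.G01957. This transcript, comp36635_c0_seq1 (1160 bp), had 0.5, 1 and 1.33 counts in the controls and 613.3, 247.2 and 256.5 counts in the treated libraries. Its treated level was 175 CPM ± 123 and 46.9 RPKM ± 31.0 (SD, n = 3). On pooled counts it was 472-fold higher in treated buds, and the exact 95% interval ran from 152 to 2166. Intervals and floors here cover only the error of counting. The second member of Brara.G01957, comp3559_c0_seq1, had no control count and 318, 121 and 118 treated counts, at least 222-fold higher than the floor of 3 counts over the control group (0.365 CPM). Both were highest in amidosulfuron 1 by more than 2-fold over either other treated library.

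Brara.E01251 also had 2 members, and they were all of its tabulated transcripts. The longer, comp44895_c0_seq1 (1057 bp), had 6, 0 and 0 control counts and 260.5, 60 and 129 treated counts, or 72.5 CPM ± 57.2 in treated buds (SD, n = 3; 130-fold the control mean CPM). The other, comp38111_c0_seq1 (918 bp), had the same 6, 0 and 0 control counts and 186.5, 51 and 89 treated counts. All tabulated control reads of this gene came from control 1, the deepest library. Among tabulated transcripts, Brara.G00427 was represented by 3 members and nothing else, at treated means of 5.87 to 6.67 RPKM. Its highest member, comp26418_c0_seq1, had 0, 0 and 1 control counts and 46, 23 and 20 treated counts; comp20978_c0_seq1 had none and then 30.5, 13 and 11.5; comp2599_c0_seq1 had 2, 1 and 2 and then 38.5, 8 and 13.5.

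Pairs of members also came from genes with consecutive identifiers. This was so for 3 pairs, 6 of the 31 genes: Brara.A00279 with Brara.A00280, Brara.C02404 with Brara.C02405, and Brara.H00148 with Brara.H00149. Genome positions were not used here, so whether the rapeseed genes are neighbours was not tested. How often identifiers are consecutive over all genes was not computed, so the 3 pairs are only a description. In the first pair, comp35546_c0_seq1 of Brara.A00279 had 3, 0 and 0 control counts and 300, 101.5 and 187.5 treated counts. Its treated level of 47.4 RPKM ± 28.7 (SD, n = 3) ranked second of the 52. Its pooled counts were 235-fold higher (95% interval from 80.1 to 1143, for counting error only). Its neighbour in number, comp27031_c0_seq1 of Brara.A00280, had no control count and 18, 9 and 13 treated counts, at least 16-fold higher than the floor. Each is the only tabulated transcript of its gene.

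The pair Brara.H00148 and Brara.H00149 held 5 of the 52. The member with the highest level per length of all, comp29008_c1_seq1 (299 bp) of Brara.H00149, had 0, 0 and 1 control counts and 136.5, 79.5 and 160.5 treated counts. Its treated level was 62.1 RPKM ± 29.6 (SD, n = 3), which overlaps within 1 SD with that of Brara.A00279, the next in order. The other 2 members of this gene, comp24638_c0_seq1 and comp38375_c0_seq2, reached 17.8 CPM ± 8.60 and 10.4 CPM ± 4.15 (SD, n = 3). Of Brara.H00148, comp38375_c0_seq1 had 1.5, 0.5 and 1 control counts and 114.3, 49.5 and 86.7 treated counts, and comp101640_c0_seq1 had 0, 0 and 2 and then 50.5, 43.5 and 78. Members of both genes belong to the assembly component comp38375_c0 and hold fractions of counts, so they may share reads.

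In the pair Brara.C02404 and Brara.C02405, comp46836_c0_seq3 (1433 bp) of the former had 1.5, 2 and 3.83 control counts and 338.4, 120.8 and 313.8 treated counts. Its level was 123 CPM ± 70.8 in treated buds (SD, n = 3), 127-fold the control mean CPM. The second member of Brara.C02404, comp106149_c0_seq1, was shorter (284 bp) and lower, with 0, 0 and 1 control counts and 30, 7 and 16 treated counts. The only member of Brara.C02405, comp28136_c0_seq1, had 0.5, 0.33 and 1 control counts and 37.8, 11.3 and 36.6 treated counts. In these 3 transcripts amidosulfuron 2 was at least 2-fold lower than either other treated library.

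Brara.C01527 and Brara.J02579 had 2 members each. Of Brara.C01527, comp34680_c0_seq3 had 3.5, 0 and 0 control counts and 139.8, 33.8 and 67.3 treated counts, and comp46080_c0_seq3 had 1.5, 0 and 0 and then 95.8, 19.7 and 47.7. Each of these 2 transcripts shares its assembly component with one of the 9 unmatched members. Those partners, comp34680_c0_seq1 and comp46080_c0_seq2, had a single control count each and means of 8.80 CPM ± 4.70 and 11.1 CPM ± 5.86 in treated buds (SD, n = 3). Of Brara.J02579, comp44474_c0_seq2 had 4.5, 0.33 and 0.5 control counts and 94.3, 23.3 and 44.8 treated counts, and comp575_c0_seq1 had 2.5, 0 and 0.5 and then 90, 22 and 34.5. For these 4 selected transcripts, control 1 held most of the few control reads and amidosulfuron 1 was the highest treated library.

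Among genes with 1 member, comp32897_c0_seq2 (1458 bp) of Brara.C04003 had 3, 1.5 and 1 control counts and 187, 44.5 and 69.5 treated counts, 75.6-fold by mean CPM. The only tabulated transcript of Brara.B01742, comp37624_c0_seq1, had no control count and 169, 38.5 and 83 treated counts, at least 116-fold higher than the floor. A member with more even treated counts was comp38791_c0_seq1 (1233 bp) of Brara.B02593, with 3, 3 and 1 control counts and 91, 76 and 90 treated counts, or 39.0 CPM ± 10.9 in treated buds (SD, n = 3; 45-fold by mean CPM). The lowest member of all, comp45715_c0_seq1 of Brara.C01589, went from 2, 1 and 0 counts to 11, 15 and 7, a mean of 4.76 CPM ± 1.20.

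The 9 unmatched transcripts were 17.3% of the 52, beside 11.4% unmatched among all transcripts past the filter. The highest in CPM, comp19574_c0_seq1 (717 bp), had 1, 0 and 0 control counts and 109, 29 and 38 treated counts. Its pooled ratio was 211, with a 95% interval from 37.3 to 8372 for counting error only. The next in CPM, comp28984_c0_seq1, had no control count and 72, 31 and 45 treated counts, at least 59.1-fold higher than the floor. Per length it was at 28.6 RPKM ± 15.3 in treated buds (SD, n = 3), eighth of the 52 and above the 12.2 RPKM ± 10.1 of comp19574_c0_seq1. An organism or gene is not given for these transcripts in the sources used here.

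Whether a whole gene was near silent in control buds, or only one of its assembled transcripts, could be read only from the other tabulated transcripts with the same match. Tabulated counts were 30.1% to 34.1% of the mapped reads, so transcripts of these genes outside the tabulated part are not covered. What follows therefore does not settle whether a whole gene was near silent. For 15 of the 31 genes the selected transcripts were all that was tabulated, 11 of them with a single transcript. The other 16 genes had 46 further transcripts, of which 34 did not reach the count filter. With all tabulated transcripts summed, 14 of the 31 genes stayed under 1 CPM in control buds, 27 stayed under 5 CPM and the highest reached 17.9 CPM. In treated buds the selected transcripts held from 5.56% to 99.5% of the reads of the 16 genes (median 50.9%).

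Several of these genes rose also when every selected transcript was left out. With the remaining transcripts summed per gene, 11 of the 16 genes could be tested, of which 4 rose and 0 fell by the same edgeR test, with p adjusted over all 13020 genes. Of all genes, 0.0768% were called higher and 0.00768% lower. The 4 were Brara.H00148, Brara.C02404, Brara.C02405 and Brara.J02579. At an unadjusted p under 0.05 in edgeR, 9 of the 11 were higher and 0 lower, beside 5.68% and 5.22% of all genes. DESeq2 called 7 higher and 0 lower, beside 0.737% and 0.622% of all genes. Of the 4, 3 had enough control reads to pass the count filter on the control libraries alone. Brara.C02404 did not, and such a gene could enter the test only through its treated reads. The same was true of Brara.C04242, Brara.I00501 and Brara.J00983, which were among the 9 higher at an unadjusted p under 0.05 in edgeR. Of all 11, 7 would have passed on the control libraries alone. Of these 7, Brara.B02593 and Brara.I03160 were not higher (log2 fold −0.40 and −0.22). The rest of a gene may share reads with the transcripts left out. The whole rest of Brara.I00501, comp46107_c1_seq1, lies in the same assembly component as its selected transcript. It had 6, 1 and 2.5 control counts and 53.5, 5 and 79 treated counts. The selected transcript had nearly the same, 5, 1 and 2 and then 54, 5 and 74.5. In the rest of Brara.C04242 and Brara.C02405, comp44452_c0_seq1 and comp46836_c0_seq1 also share a component with a selected transcript. Part of these counts may therefore repeat the selection.

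The rest of Brara.H00148 had 12.5, 12 and 9 counts in the controls and 1104.8, 563 and 997.7 after amidosulfuron. This is a rise from 4.20 CPM ± 1.05 to 416 CPM ± 195 (SD, n = 3; log2 fold 6.73 ± 0.53 SE, edgeR adjusted p = 0.00669). The selected transcripts of this gene held only 13.7% of its treated reads, and most of the rest lay in comp51976_c0_seq2 (940 bp), which went from a mean of 2.90 CPM ± 1.00 (SD, n = 3) to 292 CPM ± 137 (edgeR adjusted p = 0.00634). A second transcript, comp51976_c1_seq3 (699 bp), went from 1.31 CPM ± 0.174 (SD, n = 3) to 125 CPM ± 58.7 (edgeR adjusted p = 0.00634). Neither belongs to a component with a selected transcript. Both were under the count filter on the control libraries alone, so they could enter the transcript test only through their treated reads.

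The rest of Brara.C02405 had 12.5, 5 and 12.8 control counts and 652.7, 225.5 and 576.7 treated counts (log2 fold 6.04 ± 0.66 SE, edgeR adjusted p = 0.0165). The selected transcript held 5.56% of the gene's treated reads, the lowest share of the 16. Its main transcript, comp46836_c0_seq1 (1436 bp), went from 1.87 CPM ± 1.68 (SD, n = 3) to 175 CPM ± 104 (edgeR adjusted p = 0.0287) and lies in the same component as the member comp46836_c0_seq3 of Brara.C02404. A second one, comp37344_c1_seq1 (922 bp), went from 1.81 CPM ± 0.613 (SD, n = 3) to 56.5 CPM ± 31.7 (edgeR adjusted p = 0.0247). On the control libraries alone both transcripts were under the count filter, so only their treated reads brought them into the test.

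The rest of Brara.C02404 had 5, 3.33 and 1.33 control counts and 522.8, 204 and 409.3 treated counts. Its log2 fold was 7.38 ± 0.69 SE (edgeR adjusted p = 0.0126). Nearly all of these reads lay in comp42320_c0_seq2 (1127 bp, edgeR adjusted p = 0.00634). Both this rest and this transcript could enter their tests only through treated reads. The rest of Brara.J02579 was the single transcript comp49282_c1_seq1 (1323 bp), with 28.7, 13 and 10.5 control counts and 798.2, 262.8 and 443 treated counts. It rose from 6.06 CPM ± 1.82 to 239 CPM ± 161 (SD, n = 3), a log2 fold of 5.35 ± 0.63 SE as a gene (edgeR adjusted p = 0.026), and held most of the reads of a gene whose selected transcripts held 17%. The selected transcripts of Brara.C02404 held 42.1% of its treated reads, the highest share among the 4 genes.

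These calls changed when a single library was left out. Without control 2 none of the 4 genes passed (edgeR adjusted p 0.122 to 0.188), without control 1 only Brara.H00148 did (0.0465). Without amidosulfuron 1 the call of Brara.C02405 was lost (edgeR adjusted p = 0.0512), and without amidosulfuron 3 those of Brara.C02405 and Brara.J02579 (edgeR adjusted p = 0.0527 and 0.0704). Without amidosulfuron 2 the count was 7 while the share of all genes called higher was 0.945%, and without both control 3 and amidosulfuron 2 it was 6 while that share was 0.477%. Over 13 alternatives the log2 fold of the rest of Brara.H00148 lay between 6.39 and 7.10 and its adjusted p between 2.48e-42 and 0.122. Leaving out a library also leaves fewer libraries to estimate the spread, and the part of each was not tested.

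Read transcript by transcript, 7 of the 12 non-selected transcripts past the filter were called higher and 0 lower, from 5 genes (edgeR, p adjusted over all transcripts). At an unadjusted p under 0.05 in edgeR, 10 were higher and 1 lower, beside 5.75% and 5.38% of all transcripts. DESeq2 called 9 and 0, beside 0.741% and 0.465%, and edgeR without control 3 and amidosulfuron 2 called 10 and 0. Only 1 of the 7 would have passed the count filter on the control libraries alone, so for the other 6 a higher treated level was needed to enter the test. The unadjusted and DESeq2 counts carry the same limit, since only 4 of the 12 would have passed on control libraries alone. Of these, comp49282_c1_seq1 and comp52154_c0_seq2 were higher (edgeR unadjusted p = 1.3e-05 and 0.0054). Lower was comp52164_c0_seq9 (edgeR unadjusted p = 0.036), and comp55562_c0_seq4 did not pass (edgeR unadjusted p = 0.077). The fifth gene was Brara.J00983, whose transcript comp41684_c0_seq1 went from 1.12 CPM ± 0.645 (SD, n = 3) to 9.53 CPM ± 3.21 (edgeR adjusted p = 0.0499).

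For Brara.B02593 and Brara.I03160, the rest of the gene kept a background of control reads, overlapped between groups and was not called higher. In Brara.B02593, with 15 tabulated transcripts, the 14 not selected summed to 18.1, 13 and 12.4 CPM in controls and to 12.1, 13.4 and 6.69 CPM after treatment (log2 fold −0.40 ± 0.35 SE, edgeR adjusted p = 0.724). The selected transcript went from a mean of 0.867 CPM to 39.0 CPM and made up 77.3% of the treated reads of the gene. The most abundant of the others, comp55562_c0_seq4 (1776 bp), was at 9.63 CPM ± 2.20 in controls and 5.86 CPM ± 2.41 after treatment (SD, n = 3; edgeR adjusted p = 0.502). Within this gene the groups were separate for the selected transcript and overlapped for the sum of the rest; the difference between them was not tested, since the selection fixed one side.

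In Brara.I03160 the rest summed to 5.49 CPM ± 3.28 and 4.62 CPM ± 1.44 (SD, n = 3; edgeR adjusted p = 0.92). In Brara.C04003 the rest was one transcript, comp52154_c0_seq2 (2153 bp), at 13.9, 19.2 and 18.6 CPM in controls and 71.3, 22.5 and 49.2 CPM after treatment. It was higher in every treated library but did not pass the test (log2 fold 1.53 ± 0.42 SE, edgeR adjusted p = 0.289; 0.0254 without amidosulfuron 2, 0.0405 with DESeq2, and 0.0254 to 0.854 over 13 alternatives). The remaining transcripts of Brara.G01957, 7 of 9, were too few in reads to test, at 2.01 CPM ± 0.757 and 1.10 CPM ± 0.788 in all (SD, n = 3). The highest of the 7 by mean CPM over all libraries, comp116055_c0_seq1, had 0, 1 and 2 control counts and 0, 5 and 0 treated counts. In Brara.C01527 the highest of the rest on the same measure, comp40108_c0_seq1, had 2, 5.5 and 5.5 control counts and 1, 4 and 2.5 treated counts. The groups are separate in Brara.C04003 and overlap in the other 3 genes.

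The treated libraries kept one order across most of the 52. Amidosulfuron 1 was the highest treated library for 46 and amidosulfuron 3 for 6, and amidosulfuron 2 was the lowest for 49. Over all transcripts past the filter, amidosulfuron 1 was highest for 24.6% and amidosulfuron 2 lowest for 32.3%. Relative to the mean of the treated libraries, the median level of the 52 was 1.56 in amidosulfuron 1, 0.441 in amidosulfuron 2 and 0.933 in amidosulfuron 3, where the medians over all transcripts past the filter were 0.949, 1.04 and 1.00. The highest treated value was 3.69 times the lowest at the median of the 52 (quartiles 2.59 and 5.49), against 1.55 over all.

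This order was not particular to transcripts near silent in controls. Among the 81 other transcripts that were at least 4 times higher after treatment with no overlap, amidosulfuron 1 was highest for 85.2% and amidosulfuron 2 lowest for 96.3%, beside 88.5% and 94.2% of the 52. No test of the difference was made. The order from amidosulfuron 1 over 3 to 2 held for 43 of the 52. Of the other 9, 6 were highest in amidosulfuron 3 and 3 were lowest in it. The 6 include comp29008_c1_seq1 and comp101640_c0_seq1 of the Brara.H00148 and Brara.H00149 pair and comp46107_c1_seq2 of Brara.I00501, the last named here after its values were seen. This transcript had 5, 1 and 2 control counts and 54, 5 and 74.5 treated counts, so that amidosulfuron 2, at 1.74 CPM, lay just above control 1 at 1.39 CPM. Across the 52, the Pearson correlation of log2 CPM was 0.93 between amidosulfuron 1 and 3, 0.85 between 1 and 2 and 0.82 between 2 and 3; transcripts are not independent replicates and share each library's depth.

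**Figure D3:**
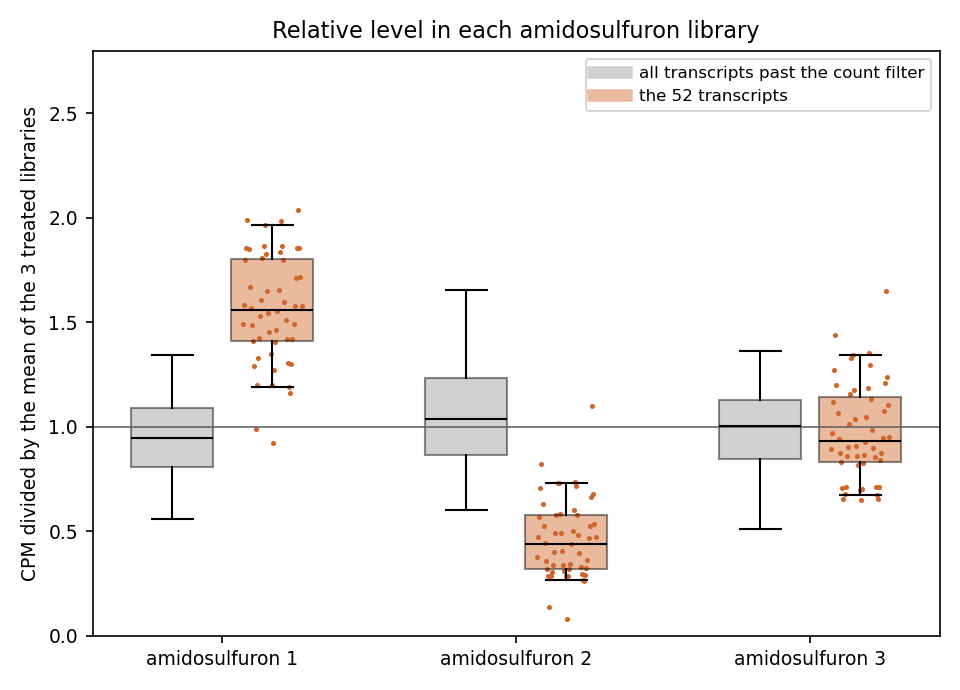
Level in each amidosulfuron library divided by the mean of the 3, for all 24958 transcripts past the count filter (grey) and the 52 transcripts (orange, one point each); boxes give the median and quartiles, whiskers the 5th and 95th percentiles. The medians of the 52 are 1.56, 0.441 and 0.933, those of all transcripts 0.949, 1.04 and 1.00.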

How the data were processed

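Per the labels, RNA of young buds was made into normalized cDNA, by a method they do not describe, and into Digital Gene Expression tag libraries read on an Illumina GAIIx. Per the series' design text, the authors aligned clean 36 nt reads with Bowtie2 2.1.0, allowing 1 mismatch, to an earlier Trinity assembly whose transcripts were matched to Brassica rapa FPsc 1.3. The deposited tables give an estimated count per transcript, not normalized, and an RPKM value, normalized by the authors to length and mapped reads. The sources used here do not give how reads with several hits were shared; 41 of the 52 transcripts hold a fractional count.

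Transcript lengths and mapped totals were recovered as count over RPKM (whole lengths in control 1 for 100% of values, tolerance 0.05 bp, shortest 201 bp); RPKM were otherwise used only as levels. Estimated counts were rounded and tested in edgeR 4.0.16 under R 4.3.3 (TMM scaling, quasi-likelihood test, group as the only term, all 6 libraries), for transcripts and for genes summed without the selected transcripts, after the filter of the design text (upper quartile of at least 10). Calls use a Benjamini-Hochberg adjusted p under 0.05. SE of a log2 fold is its size over the root of the F statistic. CPM use tabulated totals; intervals are exact at 95%. The biological coefficient of variation was 30.1%, and p-values measure the spread between 3 libraries a group. DESeq2 1.42.0 and limma 3.58.1 served as alternatives, with other scalings, filters and libraries left out.

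The members and lists were chosen with earlier results of these data known. Named are the 8 genes with several members and the highest treated level, the next 4 matched and 2 unmatched members, members at the limits, 3 with no control count, and the main or called other transcripts of these genes. No list of pathway or cell type genes could be matched to the identifiers.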

Additional observations from a re-analysis of the deposited data

How the results depend on the processing

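The selection of 52 transcripts was 53 with TMM-scaled library sizes, 52 with RPKM denominators scaled to the column totals (chosen after seeing the data), 93 with the unscaled denominators, which are about 3 times larger, and 591 with no count filter; each of these held all 52. It was 30 with an upper quartile of at least 20, 34 and 82 with control limits of 0.5 and 2 CPM, 49 and 41 at 8 and 16 times control, 16 genes summed per gene, 42 components summed per component, and 38 to 67 with 1 library left out. The summed level was 430 and 6.16 CPM with RPKM denominators (treated 1374, control 18.5), and 934 to 1773 (treated) and 15.1 to 21.3 (control) with 1 library left out. Amidosulfuron 1 was highest for 43 to 47 of the 52.

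All transcripts called higher and lower (40 and 8) became 185 and 116 with DESeq2, 249 and 280 with no filter, 54 and 13 with library totals, 0 and 0 with limma-voom (1396 and 974 at an unadjusted p under 0.05), and 155 and 55 without control 3 and amidosulfuron 2. With 1 library left out they ran from 0 to 249 and from 0 to 41. Non-selected transcripts called higher (7) were 11 with no filter, 0 with limma-voom and 0 to 10 with 1 library left out. Genes called higher without their selected transcripts (4) were 7 with DESeq2, 1 with limma-voom and 0 to 7 with 1 library left out. None of these was called lower in any of the 13 alternatives. The cause of these changes was not tested. The log2 fold of the rest of Brara.I03160, −0.22, reversed to 0.20 without control 3 and to 0.39 without control 3 and amidosulfuron 2, and ran from −0.62 to 0.20 with 1 library left out.

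With the replicate number as a block, 75 transcripts were called higher and 44 lower, 8 non-selected transcripts higher and 4 genes higher. The labels do not say that equal numbers pair the libraries. Deviations of same-numbered libraries correlated at 0.14, −0.13 and −0.40. Deviations from a mean of 3 libraries are tied to one another, so these values cannot decide whether a pairing exists. Limma-voom, unrounded counts and leaving out 2 libraries were chosen after seeing the data. A count of 0 in 1 control library allows up to 0.834 to 1.35 CPM (3 counts), so single-library zeros do not show absence.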
